A study of Mus musculus with 12 samples.

Results

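The response of TKO cells to low glucose was described across genes. TKO cells are a mouse line of acute lymphoblastic leukaemia of the B lineage (B-ALL) with the genotype Bax-/-,Bak-/-,Mcl-1-/-. The comparison takes the 3 TKO libraries from low glucose medium and the 3 from regular medium, 6 of the 12 RNA-seq libraries of the series. Both groups were cultured in their medium for 24 h, and they share all 3 deletions, so nothing in this comparison separates the effect of a deletion. The other 6 libraries come from DKO cells, which carry Bax-/-,Bak-/- and keep Mcl-1, in the same 2 media with 3 libraries each, and they enter only where the responses of both lines are compared. The labels name 1 line per genotype and give neither the glucose concentrations nor the other components of the media. Whether the 3 libraries of each group are separate cultures is not stated. The p-values thus measure only how far these samples spread, and that spread may be technical.

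B-ALL cells are transformed B-cell precursors that divide rapidly and take up much glucose, which feeds glycolysis, nucleotide synthesis and lipid synthesis. MCL-1, the protein made from Mcl1, restrains the cell death effectors BAX and BAK and also acts inside mitochondria, where it has been tied to the oxidation of fatty acids. Without BAX and BAK, cells lack the main route to mitochondrial apoptosis and can survive without MCL-1, which makes the response of such cells to scarce glucose measurable. Cells short of nutrients are known to engage the transcription factor ATF4 (amino acid supply), HIF-1 (glycolysis and oxygen sensing), NRF2 (antioxidant defence), FOXO factors (growth factor withdrawal) and the TFEB family (lysosomes and autophagy). The series title places the work in the field of fatty acid oxidation, so genes of lipid metabolism were followed as well.

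The libraries held 22190736 to 42140396 counts each, and levels are given as counts per 1000000 (CPM) after scaling by trimmed means (TMM). Mcl1, the deleted gene, stood at 0.474, 0.354 and 0.391 CPM in regular medium and at 0.17, 0.268 and 0.326 CPM in low glucose, against 239 ± 2.51 CPM (mean ± SD, n = 3) in DKO cells in regular medium. Its low glucose values lay below the regular ones, on 6 to 14 counts a library, and were not called. Reads over Bax and Bak1, deleted in both lines, stood at 4.07 to 7.92 CPM in the TKO libraries and at means of 16.9 to 21.7 CPM in the DKO groups, and which exons were deleted is not given. Of 32 early B-cell genes, all 32 had a mean of at least 1 CPM, and their summed level was 10822 to 11418 CPM in regular medium and 10435 to 11306 CPM in low glucose. In a principal component analysis of the 6 libraries, the first component held 63.9% of the variance and separated the media, and the second held 18.0% and set replicate 2 apart in both media. Ribosomal Rn45s made up 2.50% to 4.2% of the counts.

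Low glucose moved many genes in TKO cells, most of them by little. With edgeR's quasi-likelihood test, 3230 of 11267 tested genes passed a Benjamini-Hochberg adjusted p under 0.05, which is 28.7%. Of these, 1880 rose (16.7% of the genes tested) and 1350 fell (12%). The median change was 1.37-fold among genes that rose and 1.23-fold among genes that fell. Large changes were mostly upward: 249 genes rose at least 2-fold (2.21%), and 23 fell at least 2-fold (0.204%). A change of at least 4-fold was seen in 51 genes that rose and 2 that fell. Over all tested genes the median log2 fold change was 0.01. The 3 low glucose libraries lay above the 3 regular libraries for 2779 genes (24.7%) and below them for 2168 (19.2%).

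**Figure D1:**
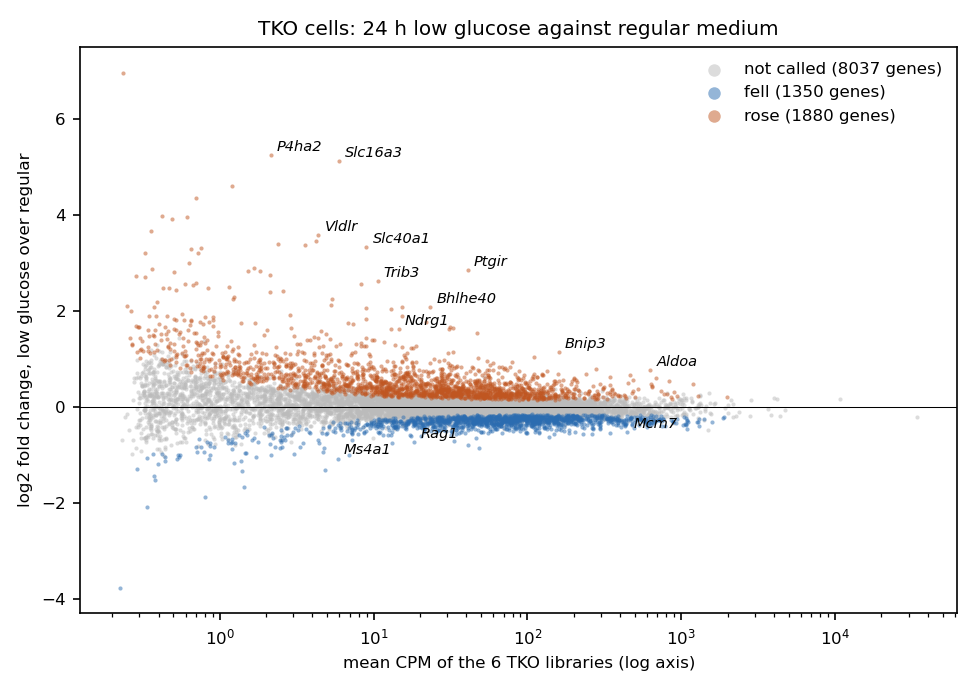
Log2 fold change of each of the 11267 tested genes (vertical axis, low glucose over regular medium) against its mean CPM over the 6 TKO libraries (horizontal log axis), with 1880 genes that rose in orange, 1350 that fell in blue and 8037 not called in grey. The points above 2 on the vertical axis, such as Slc16a3, P4ha2 and Ptgir, have few counterparts below -1.

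These counts depended on how the spread was estimated. The TKO libraries of replicate 2 deviated together in both media, while those of replicates 1 and 3 did so across numbers too. With the replicate number as a block 5753 genes were called, 3012 higher and 2741 lower. Leaving out regular replicate 1, regular replicate 3 or low glucose replicate 1 gave 1562, 1614 and 1631 called genes. Regular replicates 1 and 3 were far more alike than any other pair within a TKO group. The chi-square of their counts over genes was 2.02 per degree of freedom, against 13.3 to 36.9 for other pairs. Whether these 2 libraries come from separate cultures is not given, and the reason for their likeness was not tested. Scaling by library totals instead of TMM moved the share of higher calls from 58.2% to 69.6% (2212 higher, 968 lower). No called gene was called in the other direction under any of these settings.

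Among called genes with a mean of 5 CPM or more, Slc16a3, Slc40a1 and Ptgir had the largest rises. Slc16a3 (chr11:120948484-120959000, GRCm38), which encodes the lactate exporter MCT4, was at 0.339, 0.314 and 0.326 CPM in regular medium and at 13.2, 10.5 and 11 CPM in low glucose. It was thus near silent in regular medium, with 28 counts over the 3 libraries against 1251 in low glucose, and it rose 35.2-fold (log2 5.14 ± 0.18 SE, adjusted p = 2.25e-06). Ptgir (chr7:16906490-16910905), the prostacyclin receptor, stood at 9.998, 9.78 and 9.84 CPM and at 71.2, 73.8 and 70.4 CPM. The 2 groups were far apart and each was tight, and the rise was 7.27-fold (log2 2.86 ± 0.06, adjusted p = 8.31e-08). Slc40a1, the iron exporter ferroportin, was at 1.93, 1.53 and 1.43 CPM and at 16.2, 12.5 and 20.2 CPM. Its low glucose libraries differed more among themselves, and the gene rose 10.1-fold (adjusted p = 3.83e-05). The rankings of largest rises and falls admitted only genes whose libraries did not overlap between the media.

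Transcription factors followed among the 15 largest rises. Bhlhe40 and its relative Bhlhe41, repressors that act in the circadian clock and in metabolism, rose 4.25-fold and 3.42-fold. Bhlhe40 was at 8.51, 9.43 and 8.83 CPM in regular medium and at 36.9, 39.6 and 37.3 CPM in low glucose. Ahrr, the repressor of the aryl hydrocarbon receptor, rose 4.19-fold, and Jdp2, a partner of AP-1 proteins, rose 3.57-fold. Mt2, a metal-binding metallothionein, rose from 5.79 ± 0.72 to 24.8 ± 3.96 CPM (SD, n = 3). Col6a6, a chain of collagen VI, rose 3.73-fold. The remaining members of this group, Trib3, Nupr1, Chac1, Hmox1, Slc6a9 and Ankrd37, are described with their pathways. In absolute terms the 5 genes that gained most included the glycolytic enzymes Pkm and Aldoa and Atp1b1, a subunit of the sodium pump. Atp1b1 went from 543 ± 9.59 to 831 ± 32.4 CPM (adjusted p = 0.000212).

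**Figure D2:**
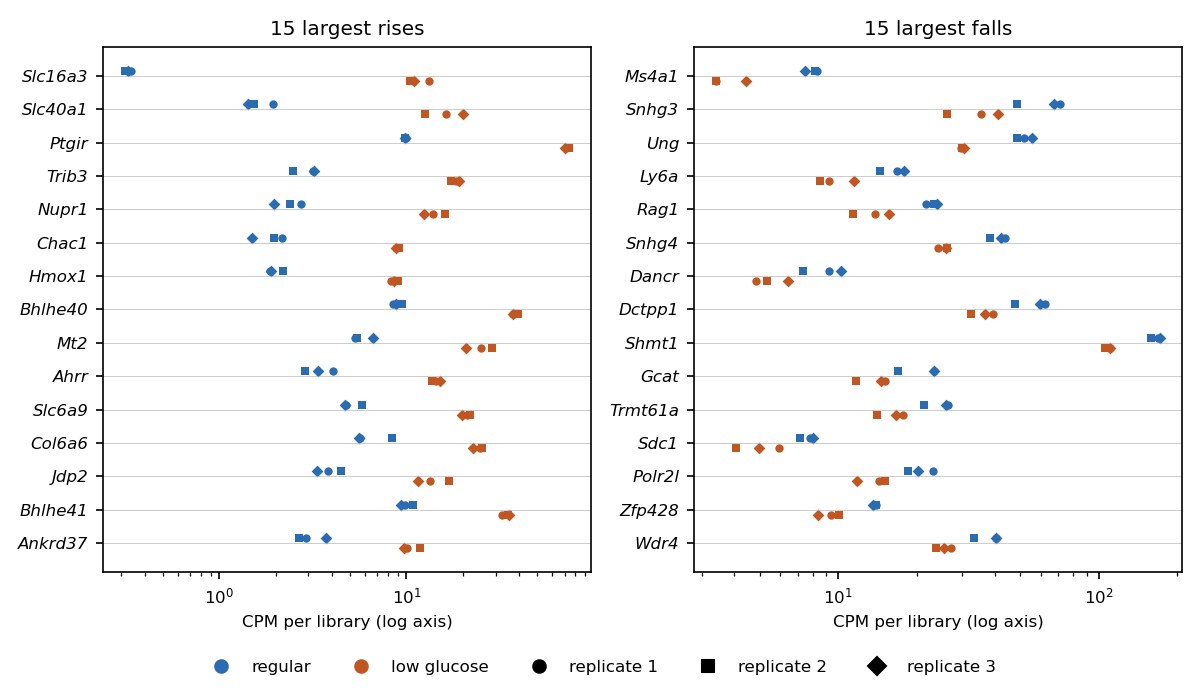
CPM in each TKO library (horizontal log axis) for the 15 genes with the largest rises and the 15 with the largest falls among called genes whose mean is 5 CPM or more, with regular medium in blue, low glucose in orange and the marker giving the replicate. Blue and orange points do not overlap for any gene, which the choice of genes required, and the gaps on the left (Slc16a3, 35.2-fold) are wider than those on the right (Ms4a1, 2.11-fold).

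HIF targets had the largest share of members that rose among the metabolic lists. HIF is a transcription factor that is degraded while the oxygen-sensing prolyl hydroxylases are active, and its targets include glycolytic enzymes and mitophagy receptors. Of 21 listed genes, 18 passed the filter on low counts. Of these 14 rose (77.8%, against 16.7% of all genes) and none fell, with a median log2 of 0.60 against 0.01 over all genes. A gene silent in one medium can pass this filter through the other, as P4ha2 did.

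P4ha2, a collagen prolyl hydroxylase, was at 0.0339, 0.196 and 0.0977 CPM in regular medium and at 4.56, 4.2 and 3.75 CPM in low glucose. Those regular libraries held 9 counts in all, so its 38.2-fold rise (adjusted p = 2.09e-05) is imprecise, while the 443 counts in low glucose lay far above them. Bnip3, a mitochondrial receptor for mitophagy, stood at 99.4, 97.9 and 102 CPM and at 208, 214 and 238 CPM. Each low glucose library lay above each regular one, and the gene rose 2.2-fold (log2 1.14 ± 0.06, adjusted p = 2.09e-05). Its relative Bnip3l rose 2.07-fold, from 72 ± 3.45 to 149 ± 9.96 CPM. Ndrg1, a stress-responsive gene, rose 3.1-fold, Ankrd37 3.35-fold, Ero1l, an oxidase of the endoplasmic reticulum, 1.79-fold, and Egln1, an oxygen-sensing hydroxylase, 1.39-fold. Hif1a itself, regulated mainly at the protein level, was at 178, 192 and 178 CPM and 179, 198 and 197 CPM. These values overlapped and were not called (log2 0.07 ± 0.06, adjusted p = 0.455).

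The promoters of these genes were read because the members rose together. In the 250 bases before RefSeq starts (GRCm38.p6), the letters ACGTGC, the core of a hypoxia response element, were searched on both strands. They occurred in 13 of 22 windows of the tested HIF targets (59.1%), in 9 of 16 windows of those that rose (56.2%), and in 6.78% of 11371 windows of all tested genes, 8989 of which had a window. Among all called genes they occurred in 5.36% of windows of those that rose and 7.4% of those that fell. This motif was added after the rise of the HIF targets was seen. The 3 windows below belong to the genes with the largest rise among glycolytic genes and HIF targets and to Bnip3, whose match is also part of an E-box (CACGTG) and is matched on both strands. Capitals mark the matches, and each sequence runs 5′ to 3′ on the strand of the gene.
Slc16a3, chr11:120948817-120949066, plus strand, matches 21 and 8 bases before the start: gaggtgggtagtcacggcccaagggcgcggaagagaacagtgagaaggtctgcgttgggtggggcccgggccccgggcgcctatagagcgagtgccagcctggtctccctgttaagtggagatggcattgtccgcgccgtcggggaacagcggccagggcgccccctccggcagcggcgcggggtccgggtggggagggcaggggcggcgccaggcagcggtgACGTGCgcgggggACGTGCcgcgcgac
P4ha2, chr11:54100674-54100923, plus strand, match 72 bases before the start: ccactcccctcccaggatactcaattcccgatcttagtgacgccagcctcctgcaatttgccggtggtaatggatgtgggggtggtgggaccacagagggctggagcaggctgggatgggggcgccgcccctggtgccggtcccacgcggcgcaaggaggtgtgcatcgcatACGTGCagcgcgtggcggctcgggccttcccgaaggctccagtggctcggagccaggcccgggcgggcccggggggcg
Bnip3, chr7:138909507-138909756, minus strand, matches 103 and 101 bases before the start: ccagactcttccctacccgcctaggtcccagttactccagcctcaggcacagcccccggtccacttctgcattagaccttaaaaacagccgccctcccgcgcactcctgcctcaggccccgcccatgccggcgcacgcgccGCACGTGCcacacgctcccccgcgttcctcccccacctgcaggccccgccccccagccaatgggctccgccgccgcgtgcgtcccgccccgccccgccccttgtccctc
A match describes the letters in the window and shows neither binding nor a cause. The list holds known HIF targets, so its share was not an independent test.

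Glycolysis changed in the same direction at several steps. Of 24 listed genes 21 were tested, 11 rose (52.4%, against 16.7% of all genes) and 1 fell, and the median log2 was 0.40. Slc2a1, the glucose transporter GLUT1, was at 36.4, 35.6 and 36 CPM in regular medium and at 60.5, 64 and 56.2 CPM in low glucose. All low glucose libraries exceeded the regular ones and the gene rose 1.67-fold (adjusted p = 0.000155). Hk1, which phosphorylates glucose, rose from 19.1 ± 1.2 to 37.9 ± 5.5 CPM (1.98-fold, adjusted p = 0.000559). Among the aldolases, Aldoa was at 464, 468 and 466 CPM and at 803, 831 and 747 CPM, and it rose 1.7-fold. Aldoc, a second isoform, rose 2.71-fold from a far lower level per length, a mean of 3.31 TPM (transcript level corrected for length) in regular medium against 538 TPM for Aldoa. Pfkp, Tpi1, Pgk1 and Pkm rose 1.6-, 1.55-, 1.49- and 1.4-fold. Values for Gapdh, Pgam1 and Ldha were not called, with log2 fold changes of 0.05, -0.05 and 0.14. Slc16a1, the lactate and pyruvate carrier MCT1, fell by 0.31 on the log2 scale, a call lost when regular replicate 1, regular replicate 3 or low glucose replicate 1 was left out. Pdk1, the kinase that shuts pyruvate out of the TCA cycle, rose from 158 ± 1.51 to 229 ± 6.69 CPM (1.45-fold, adjusted p = 0.000253).

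ATF4 targets had the highest median of the lists followed. ATF4 is the effector of the integrated stress response and drives amino acid synthesis and transport. Of 38 listed genes 34 were tested, 24 rose (70.6%, against 16.7% of all genes), none fell, and the median log2 was 0.82. Atf4 was at 218, 202 and 220.3 CPM in regular medium and at 238, 223 and 241 CPM in low glucose. The groups did not overlap, but the difference was not called (log2 0.13 ± 0.06, adjusted p = 0.126), and ATF4 is known to be controlled largely at translation.

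Among the feedback regulators, Trib3, a pseudokinase, was at 3.15, 2.48 and 3.19 CPM and at 18.5, 17.4 and 19 CPM. It rose 6.2-fold (log2 2.63 ± 0.10, adjusted p = 4.56e-06) with a wide gap between the media. Nupr1, a small nuclear stress protein, rose 5.93-fold, Chac1, which degrades glutathione, 4.76-fold, and Ddit3, the transcription factor CHOP, 2.4-fold. Chac1 stood at 2.17, 1.96 and 1.5 CPM and at 8.83, 9.17 and 8.81 CPM. Atf5 rose 3.12-fold and Atf3 1.99-fold. Sesn2 and Ddit4, which restrain mTORC1, rose 2.13- and 1.94-fold.

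The amino acid arm was uneven. Asns, asparagine synthetase, rose from 121 ± 6.03 to 195 ± 6.16 CPM (1.62-fold, adjusted p = 0.00014), and Cth, which makes cysteine, rose 3.09-fold. Gpt2, the mitochondrial alanine transaminase, rose 3.07-fold, and the glycine transporter Slc6a9 4.13-fold. Slc7a3, a carrier of cationic amino acids, went from 0.78, 0.55 and 0.717 CPM to 3.66, 2.91 and 4.19 CPM and rose 5.3-fold. Vldlr, a lipoprotein receptor, was at 0.407, 0.786 and 0.847 CPM and at 7.98, 7.2 and 9.04 CPM and rose 12-fold (adjusted p = 2.09e-05). The enzymes of serine synthesis were not called: Phgdh had a log2 fold change of -0.10, Psat1 of 0.06 and Psph of 0.26. Aldh1l2, a mitochondrial folate enzyme, rose from 12 counts in the regular libraries to 154 in low glucose (9.92-fold, adjusted p = 0.000632), and Mthfd2 rose 1.37-fold.

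The C/EBP-ATF composite element was searched in the same promoter windows as TGATGNAA on both strands. It occurred in 6 of 24 windows of ATF4 targets that rose (25%), in 6 of 35 windows of all tested ATF4 targets (17.1%), and in 2.02% of all 11371 windows. Among all called genes it was in 3.33% of windows of those that rose and 1.53% of those that fell. The 6 belong to Vldlr, Nupr1, Chac1, Atf3, Pycr1 and Asns, and 3 of them are shown as those of stress regulators. In each the capitals mark the match, which lies on the strand opposite to the gene. These matches too show neither binding nor a cause, and a share among known ATF4 targets was not an independent test.
Nupr1, chr7:126625471-126625720, minus strand, match 102 bases before the start: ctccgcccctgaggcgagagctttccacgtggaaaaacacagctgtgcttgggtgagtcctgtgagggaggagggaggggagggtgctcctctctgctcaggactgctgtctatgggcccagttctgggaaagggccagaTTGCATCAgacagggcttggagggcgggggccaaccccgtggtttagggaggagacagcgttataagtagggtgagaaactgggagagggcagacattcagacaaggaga
Chac1, chr2:119350992-119351241, plus strand, match 185 bases before the start: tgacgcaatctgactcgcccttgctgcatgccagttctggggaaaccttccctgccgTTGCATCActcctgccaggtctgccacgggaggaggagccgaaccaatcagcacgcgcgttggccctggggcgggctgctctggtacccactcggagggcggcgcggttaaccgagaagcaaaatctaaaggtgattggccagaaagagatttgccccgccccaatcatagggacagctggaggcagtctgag
Atf3, chr1:191183334-191183583, minus strand, match 102 bases before the start: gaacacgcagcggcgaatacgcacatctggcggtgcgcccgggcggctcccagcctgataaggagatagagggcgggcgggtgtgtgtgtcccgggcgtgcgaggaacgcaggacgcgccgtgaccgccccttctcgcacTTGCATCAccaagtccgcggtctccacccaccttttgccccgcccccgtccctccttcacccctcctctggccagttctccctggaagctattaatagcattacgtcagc

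Neighbouring pathways showed mixed values. Cytosolic aminoacyl-tRNA synthetases, several of which are known ATF4 targets, split into 4 that rose and 4 that fell of 20 tested, with a median log2 of 0.03. These shares were 20% each, against 16.7% and 12% of all genes. Sars rose 1.51-fold and Cars 1.3-fold. The 4 that fell were not called when regular replicate 1, regular replicate 3 or low glucose replicate 1 was left out, 2 of them without low glucose replicate 2, and were 8 with the replicate block, where 7 rose. Of 23 genes that answer unfolded protein in the endoplasmic reticulum, 5 rose and 3 fell, with a median log2 of -0.03. That is 21.7% and 13.0%, against 16.7% and 12% of all genes. Xbp1, a transcription factor of that response, rose 1.4-fold, Dnajb9 1.43-fold and Herpud1 1.26-fold. Hspa5, its main chaperone (BiP), was at 788, 756 and 793 CPM and 710.2, 708 and 801 CPM, overlapping and not called. Without regular replicate 1, regular replicate 3 or low glucose replicate 1, 3 of these genes rose and none fell, and without low glucose replicate 3, 3 rose. With the block 7 fell.

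NRF2 targets rose in most cases. NRF2 is the factor that turns on antioxidant and iron-handling genes when its partner KEAP1 releases it. Of 21 listed genes 19 were tested, 12 rose (63.2%, against 16.7% of all genes) and 1 fell, with a median log2 of 0.47. Nqo1, a quinone reductase, was at 0.881, 0.471 and 0.717 CPM in regular medium and at 7.67, 7.29 and 8.25 CPM in low glucose, and rose 11.1-fold (adjusted p = 1.16e-05). Srxn1, sulfiredoxin, was at 0.712, 0.629 and 0.554 CPM and at 6.65, 6.4 and 6.64 CPM, a 10.4-fold rise. Both started low and had no overlap. Osgin1, an oxidative stress gene, had the largest fold change of the list (20.6-fold), on 5 counts in the regular libraries against 134 in low glucose. Hmox1, heme oxygenase 1, went from 1.98 ± 0.187 to 8.65 ± 0.368 CPM (4.36-fold, adjusted p = 1.19e-05). The enzymes of glutathione synthesis, Gclc and Gclm, rose 1.51- and 1.4-fold, and Txnrd1, thioredoxin reductase, 1.41-fold. Prdx1, Txn1 and Sod1, abundant antioxidant genes, were not called (log2 -0.13, -0.07 and 0.03). The single fall was not called without regular replicate 1, regular replicate 3 or low glucose replicate 1.

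Genes of FOXO and glucose sensing and of the lysosome rose in part. FOXO factors enter the nucleus when insulin-like signalling falls. The list joins FOXO targets with genes of glucose sensing. Of its 26 genes 23 were tested, and their median log2 was 0.10. Among them 10 rose (43.5%, against 16.7% of all genes) and 3 fell (13.0%, against 12%). Foxo1 was at 181, 190.0 and 176 CPM and at 292, 307 and 287 CPM and rose 1.62-fold (adjusted p = 0.000116), with each low glucose library above each regular one. S1pr1, a receptor for lymphocyte egress, rose 2.33-fold, Gadd45a 2.41-fold and Irs2, an adaptor of the insulin receptor, 1.72-fold. Txnip, a gene known for following glucose supply, was at 105, 103 and 105 CPM and 105, 98.5 and 107 CPM and was not called. Without low glucose replicate 1, 1 of the 3 falls was called, and with the block 5 were.

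Of 34 tested genes of the lysosome and autophagy, 19 rose (55.9%, against 16.7% of all genes), none fell, and the median log2 was 0.26. Sqstm1, the autophagy receptor p62, rose from 84.2 ± 1.5 to 122.9 ± 4.04 CPM (1.46-fold, adjusted p = 0.000267). Optn, another receptor, rose 2.74-fold, Npc1, the lysosomal cholesterol exporter, 1.64-fold, and Gabarapl1, which decorates autophagosomes, 1.4-fold. Tfeb, the regulator of the group, was not called (log2 -0.09 ± 0.06). The count of rises was 12, 12 and 10 without regular replicate 1, regular replicate 3 or low glucose replicate 1, and 8 without replicate 3 of both media.

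**Figure D3:**
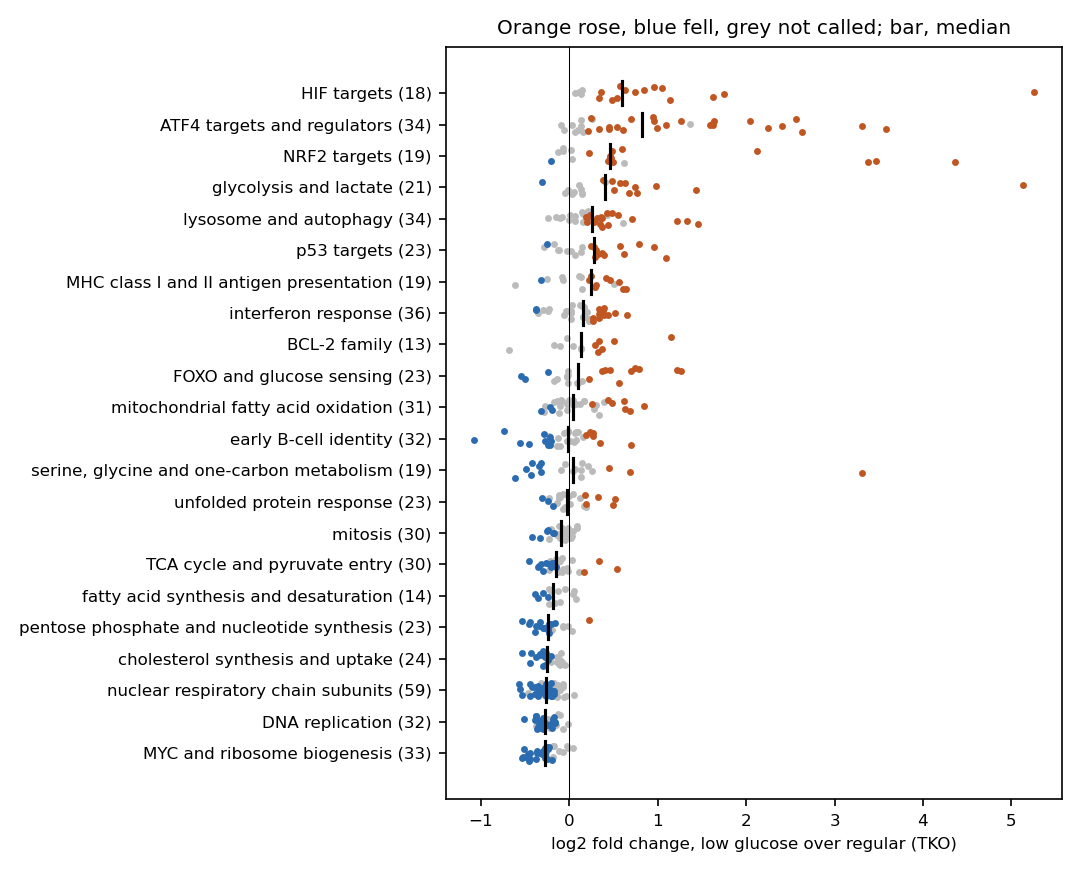
Log2 fold change in TKO cells, low glucose over regular medium (horizontal axis), of the tested members of 22 gene lists, 1 point a gene, orange where it rose, blue where it fell and grey where it was not called, with a bar at the list's median and the number tested in brackets. ATF4 and HIF targets lie to the right (medians 0.82 and 0.60), while DNA replication and ribosome biogenesis lie to the left of 0 within a narrow range (medians -0.27 and -0.28).

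In fatty acid oxidation, the process named in the series title, Cpt1a and some dehydrogenases rose while most genes were not called. Of 37 listed mitochondrial genes 31 were tested, 7 rose (22.6%, against 16.7% of all genes) and 3 fell, with a median log2 of 0.05. Cpt1a, the carnitine transferase that admits long-chain fatty acids, was at 44.6, 44.5 and 45.7 CPM in regular medium and at 69.6, 67 and 69.7 CPM in low glucose. Its groups were tight and apart, and it rose 1.53-fold (log2 0.61 ± 0.05, adjusted p = 0.00014). Other genes of fatty acid entry, among them Cpt2, Slc25a20, Slc22a5 and Acsl1, were not called. Acad10, Acad11 and Acadsb, dehydrogenases of acyl-CoA, rose 1.55-, 1.35- and 1.6-fold. The enzymes of the main spiral were not called, with log2 fold changes of -0.03 for Acadvl, 0.12 for Acadm, -0.03 for Hadha and -0.17 for Hadhb. With the replicate block 12 of the 31 rose and 8 fell, and 4 rose without regular replicate 3 or without low glucose replicate 1. The 3 falls were 1 without either of these or without regular replicate 1. In peroxisomes 4 of 14 tested genes rose (28.6%, against 16.7% of all genes) and none fell, with a median log2 of -0.004 and 2 falls with the block. Those that rose included the oxidase Acox3 (1.44-fold), and 2 rose without regular replicate 3, low glucose replicate 1 or low glucose replicate 3.

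Genes of lipid uptake were called about as often as all genes, and genes of synthesis fell in part. Of 17 tested genes of uptake, storage and lipolysis, 2 rose and 2 fell (11.8% each, against 16.7% and 12% of all genes), with a median log2 of 0.12, and without regular replicate 1, regular replicate 3 or low glucose replicate 1, 1 rose and 1 fell. Cd36, a fatty acid carrier, was at 136, 132 and 141 CPM and at 97.2, 95.8 and 111 CPM, and fell 1.34-fold (adjusted p = 0.00333). Of 14 tested genes of fatty acid synthesis and desaturation, 4 fell (28.6%, against 12% of all genes) and none rose. Their median log2 was -0.18, and 8 fell with the replicate block. Scd2, a desaturase, fell 1.31-fold and Elovl6, an elongase, 1.27-fold. Cholesterol synthesis and uptake fell more widely, with 14 of 24 tested genes lower (58.3%, against 12% of all genes), none higher and a median log2 of -0.25. Lss, which forms the sterol ring, was at 47.5, 46.8 and 47.6 CPM in regular medium and at 35.3, 33 and 35.9 CPM in low glucose. It fell 1.36-fold with no overlap (adjusted p = 0.00115), and Fdps, an earlier enzyme of the pathway, fell 1.35-fold. The count of 14 was 6, 6 and 7 without regular replicate 1, regular replicate 3 or low glucose replicate 1, and 4 without replicate 3 of both media.

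Genes of mitochondrial respiration were lower as a group and by small amounts. Of 30 tested genes of the TCA cycle and pyruvate entry, 11 fell (36.7%, against 12% of all genes) and 3 rose (10%, against 16.7%). Their median log2 was -0.15. Mdh2, malate dehydrogenase, was at 255, 240.5 and 259.6 CPM and at 202, 195 and 195 CPM and fell 1.27-fold (adjusted p = 0.00263). Idh3a, of isocitrate dehydrogenase, fell 1.26-fold. The 11 became 18 with the replicate block, 6 with scaling by library totals, and 3, 2 and 2 without regular replicate 1, regular replicate 3 or low glucose replicate 1. Of the 3 rises, which include Pdk1, 1 was called without regular replicate 1 or low glucose replicate 1.

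Of the 59 nuclear genes for respiratory chain subunits, 30 fell (50.8%, against 12% of all genes), none rose, and the median log2 was -0.26. Cyc1, of complex III, fell 1.45-fold, from 116 ± 12.3 to 79.4 ± 6.46 CPM (adjusted p = 0.0038), and Ndufs7, of complex I, fell 1.34-fold. Among subunits of the ATP synthase, Atp5k was at 104, 100.2 and 109 CPM and at 72.3, 79.2 and 78.7 CPM, and Atp5g1 was at 73.1, 67.6 and 72.1 CPM and at 52.9, 54.9 and 49.3 CPM. In both genes each low glucose library lay below each regular one. The number that fell was 54 with the block, and 11, 12 and 12 without the same 3 libraries. It was 49 without replicate 2 of both media and 7 without replicate 3 of both. Of 25 tested genes of mitochondrial dynamics and quality control, 3 rose and 3 fell (12% each, against 16.7% and 12% of all genes). Bnip3 and Bnip3l, given above, were among those that rose, and the chaperone Hspd1 fell 1.3-fold. The 3 falls were 9 with the block and 1 without any of the 3 regular libraries in turn or without low glucose replicate 1. Transcripts encoded by the mitochondrial genome were not analysed here.

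Genes of DNA replication fell by small amounts, and most genes of mitosis were not called. Of 32 genes of DNA replication, 24 fell (75%, against 12% of all genes), none rose, and the median log2 was -0.27. Mcm7, of the replicative helicase, was at 528, 528 and 522 CPM in regular medium and at 366, 369 and 367 CPM in low glucose. The 3 libraries of each medium lay close together, and the gene fell 1.43-fold (log2 -0.52 ± 0.05, adjusted p = 0.000269). Its partners Mcm5, Mcm2 and Mcm3 fell 1.31-, 1.27- and 1.27-fold. Without regular replicate 1 or regular replicate 3, 14 and 15 genes fell, and without replicate 3 of both media 10 did. Of 30 genes of mitosis, 6 fell (20%, against 12% of all genes) and none rose, with a median log2 of -0.10. Cdc20, an activator of the anaphase-promoting complex, fell 1.33-fold, from 188 ± 13.9 to 141 ± 11.5 CPM. Ccnb1, Top2a and Mki67 were not called, and their libraries overlapped between the media (log2 -0.18, -0.03 and -0.12). The 6 became 15 with the block and 1 without regular replicate 1, regular replicate 3 or low glucose replicate 1. In bulk RNA, fewer cells in a phase and less RNA per cell cannot be told apart.

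An E2F core was searched in the promoter windows as TTTNNCGC on both strands, where again a match shows neither binding nor a cause. It occurred in 9 of 27 windows of replication genes (33.3%), in 8 of 21 windows of those that fell (38.1%), and in 7.36% of all windows. Among all called genes it was in 4.12% of windows of those that rose and 9.77% of those that fell. Mcm5 and Mcm7 are shown as the helicase subunits with the largest falls, with the matches in capitals, which overlap on both strands in Mcm5 and lie on the strand opposite to the gene in Mcm7.
Mcm5, chr8:75109259-75109508, plus strand, matches 145 and 141 bases before the start: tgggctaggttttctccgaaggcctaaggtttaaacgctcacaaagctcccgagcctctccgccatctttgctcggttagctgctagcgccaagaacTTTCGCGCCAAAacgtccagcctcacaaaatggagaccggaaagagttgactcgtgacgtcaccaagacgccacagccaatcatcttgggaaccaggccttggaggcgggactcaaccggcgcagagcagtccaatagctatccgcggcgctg
Mcm7, chr5:138171884-138172133, minus strand, match 157 bases before the start: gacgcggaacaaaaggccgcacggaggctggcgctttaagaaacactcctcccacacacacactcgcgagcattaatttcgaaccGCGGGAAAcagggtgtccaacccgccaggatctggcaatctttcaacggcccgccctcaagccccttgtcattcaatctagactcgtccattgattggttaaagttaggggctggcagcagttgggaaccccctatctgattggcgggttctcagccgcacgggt

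Biosynthetic genes that serve growth also fell. Of 33 genes of MYC and ribosome biogenesis, 23 fell (69.7%, against 12% of all genes), none rose, and the median log2 was -0.28. Bop1, which processes ribosomal RNA, was at 135, 129 and 132 CPM and at 95.8, 87.8 and 91.6 CPM and fell 1.44-fold (adjusted p = 0.000375). Fbl, Utp20 and Srm, the last a spermidine synthase, fell 1.36-, 1.4- and 1.42-fold. Myc itself was at 304, 396 and 295 CPM and 327, 396 and 261 CPM, overlapping and not called. Of 23 genes of the pentose phosphate pathway and nucleotide synthesis, 17 fell (73.9%, against 12% of all genes) and 1 rose, with a median log2 of -0.24. Atic, of purine synthesis, was at 337, 338 and 338 CPM and at 263, 254 and 258 CPM. It fell 1.31-fold with tight groups (adjusted p = 0.00104), and Pfas, Umps and Cad fell 1.37-, 1.26- and 1.45-fold. In one-carbon metabolism 3 of 19 tested genes rose (15.8%, against 16.7% of all genes) and 7 fell (36.8%, against 12%). The cytosolic enzymes Shmt1 and Mthfd1 fell 1.53- and 1.35-fold while the mitochondrial Mthfd2 and Aldh1l2 rose as given above. The mitochondrial Shmt2 was not called (log2 0.13 ± 0.09). Without regular replicate 3 or low glucose replicate 1, 15 and 13 genes of the ribosome list fell, and without regular replicate 1, regular replicate 3 or low glucose replicate 1, 9, 8 and 10 of the nucleotide list did. Cad belongs to both lists.

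Among the other metabolic lists, 4 of 15 tested genes of glutamine, glutamate and aspartate metabolism rose (26.7%, against 16.7% of all genes) and 3 fell (20%, against 12%), with a median log2 of -0.02. Gpt2 was among the rises and Got2, the mitochondrial aspartate transaminase, among the falls (1.27-fold, adjusted p = 0.00293). Without regular replicate 1, 2 rose and 1 fell, and 2 rose without regular replicate 3 or low glucose replicate 1. Of 25 genes of hexosamine synthesis and N-glycosylation, which draw on glucose for sugar chains, 4 fell (16%, against 12% of all genes) and none rose, with a median log2 of -0.08. The 4 were 8 with the block and 1 without regular replicate 1, regular replicate 3 or low glucose replicate 1.

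**Figure D4:**
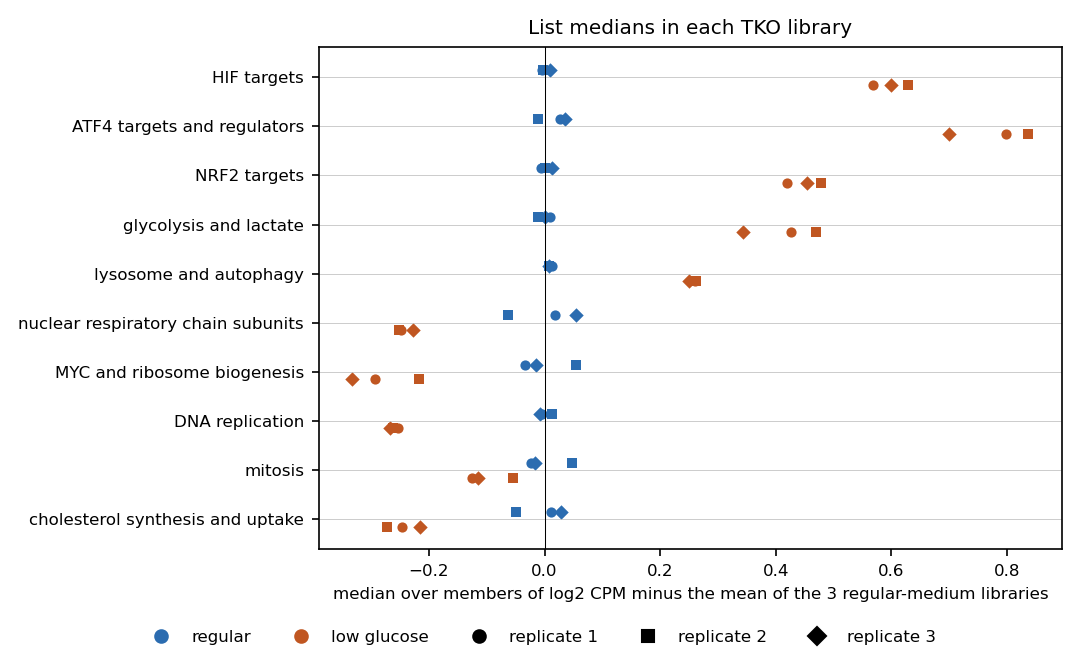
Median over the tested members of 10 gene lists of log2 CPM minus the mean of the 3 regular libraries (horizontal axis), 1 point a library, regular medium in blue, low glucose in orange and the marker giving the replicate. The low glucose medians of the ATF4 list lie between 0.70 and 0.84 and those of DNA replication between -0.27 and -0.25, while the mitosis medians lie between -0.13 and -0.05.

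Single genes with large falls included lineage genes and small RNA hosts. Ms4a1, the B-cell surface protein CD20, was at 8.27, 8.17 and 7.49 CPM in regular medium and at 3.4, 3.4 and 4.43 CPM in low glucose, and fell 2.11-fold (log2 -1.07 ± 0.12, adjusted p = 0.000632). Ung, the uracil-DNA glycosylase, was at 51.9, 48.8 and 55.3 CPM and at 29.7, 30 and 30.3 CPM and fell 1.73-fold. The choice of both genes required no overlap between the media. Rag1, of the V(D)J recombinase, fell 1.66-fold and Ly6a, the surface protein Sca-1, 1.67-fold. The small nucleolar RNA host genes Snhg3 and Snhg4 fell 1.81- and 1.63-fold, and Dctpp1, which clears dCTP analogues, 1.56-fold. Eif5a, a translation factor, lost much in absolute terms, from 1257 ± 23.2 to 919.9 ± 46.1 CPM.

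Some early B-cell genes fell, while rises among them were about as frequent as among all genes. Of the 32, 6 rose (18.8%, against 16.7% of all genes) and 10 fell (31.2%, against 12%), with a median log2 of -0.02. Spib, a transcription factor of the B lineage, fell from 178 ± 5.18 to 121 ± 5.0 CPM (1.47-fold). The counts were 2 and 6 without regular replicate 1 or without regular replicate 3, 2 and 3 without low glucose replicate 1, and 1 and 3 without replicate 3 of both media. Of 18 T-cell markers, 4 passed the filter on low counts and these rose: Cd2, Lck, Zap70 and Tcf7. Cd2, an adhesion molecule, was at 169, 191 and 159.5 CPM in regular medium and at 237, 282 and 229 CPM in low glucose, and rose 1.44-fold. Lck was not called when any 1 of the 6 libraries was left out, and Zap70 was not called without low glucose replicate 1. Their list summed to 173 to 204 CPM in regular medium and 250 to 306 CPM in low glucose, nearly all of it Cd2, while Cd4, Cd8a, Bcl11b and Thy1 were at 0 in each TKO library. Stromal markers summed to 453 to 459 CPM and 538 to 544 CPM, mostly Vim, with Col1a2, Col3a1, Pdgfra, Cxcl12, Vcam1, Dcn and Lum at 0. Myeloid markers summed to 3.10 to 4.14 CPM and 3.73 to 6.17 CPM, with Elane, S100a8, S100a9 and Cebpe at 0. Erythroid and megakaryocytic markers had a sum of at most 0.651 CPM. The part of other cells in the result was not tested beyond these levels.

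Some genes of apoptosis and immune recognition rose. Of 13 tested BCL-2 family genes 6 rose (46.2%, against 16.7% of all genes) and none fell. The 13 include the deleted Mcl1, Bax and Bak1, whose remaining reads were not called and enter the list's median of 0.13. Bmf, a BH3-only protein that neutralises BCL-2 relatives, was at 20.4, 19.5 and 21.7 CPM and at 48.4, 40.9 and 47.4 CPM and rose 2.22-fold (adjusted p = 7.12e-05). Bcl2l2, an anti-apoptotic member, rose 1.42-fold and Pmaip1, which encodes NOXA, 1.29-fold. Bcl2l1, which encodes BCL-XL, was not called (log2 0.13 ± 0.05). Without low glucose replicate 1, 3 of the 13 rose. Of 23 tested p53 targets 12 rose (52.2%, against 16.7% of all genes) and 1 fell, with a median log2 of 0.28. Cdkn1a, the cell cycle inhibitor p21, was at 73.7, 72 and 72.5 CPM and at 109, 111 and 104 CPM and rose 1.48-fold (adjusted p = 0.000214). Trp53inp1 rose 1.72-fold. The list also holds Sesn2 and Ddit4, which are ATF4 targets too. Without regular replicate 1 or regular replicate 3, 7 and 6 of the p53 targets rose. The fall was not called without regular replicate 1.

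Of 36 interferon response genes 12 rose (33.3%, against 16.7% of all genes) and 2 fell (5.56%, against 12%). Their median log2 was 0.16, and 19 rose with the block. Without regular replicate 1 or low glucose replicate 1, 1 fell. Ddx58, the RNA sensor RIG-I, rose 1.57-fold (adjusted p = 0.000269). Canonical interferon-induced genes such as Ifit1, Ifit3 and Isg15 were not called, with log2 fold changes of -0.24, 0.01 and -0.36. The 2 that fell, Mx1 and Rsad2, are also canonical interferon-induced genes. Of 19 tested genes of MHC antigen presentation 9 rose (47.4%, against 16.7% of all genes) and 1 fell (5.26%, against 12%). Their median log2 was 0.25, and 5 rose without low glucose replicate 1. Without low glucose replicate 2, 2 fell. H2-Ab1, a class II chain, rose from 14.9 ± 1.223 to 23.4 ± 2.77 CPM (1.56-fold), and H2-Ob rose 1.52-fold. Near-identical MHC genes can share reads, and how such reads were counted is not given.

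The response was set against that of DKO cells by testing the difference of both responses in 1 model of all 12 libraries. The difference passed an adjusted p under 0.05 for 3572 of 11988 genes (29.8%). The TKO response was higher for 2119 of them (17.7%) and lower for 1453 (12.1%), where higher means more upward or less downward. Many genes started from different levels in the lines, and 1 line stands for each genotype, so genotype and line cannot be told apart. Leaving out DKO low glucose replicate 2 gave 930 lower, leaving out DKO low glucose replicate 3 gave 1327 higher, and leaving out TKO regular replicate 2 gave 2440 lower.

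Cell division genes fell less in TKO cells. All 32 replication genes differed in that direction, with a median log2 response of -0.27 in TKO cells and -1.01 in DKO cells. Mcm7 went from 461 ± 4.38 to 188 ± 1.57 CPM in DKO cells (log2 -1.30), against log2 -0.52 in TKO cells, a difference of 0.78 ± 0.05 SE (adjusted p = 1.3e-07). Of the 30 mitosis genes 29 differed the same way, with medians of -0.10 and -0.95. Ccnb1 went from 277 ± 4.69 to 132 ± 2.08 CPM in DKO cells, while its TKO values overlapped between media. Ribosome biogenesis differed for 22 of 33 genes (medians -0.28 and -0.61), nucleotide synthesis for 15 of 23 (medians -0.24 and -0.61), the TCA cycle for 16 of 30 (medians -0.15 and -0.35) and one-carbon metabolism for 10 of 19, with the TKO response higher in each. A lower TKO response was called for 2 nucleotide and 4 one-carbon genes, and the 4 were 2 when any 1 of 9 libraries was left out (each of the DKO regular libraries, DKO low glucose replicates 1 and 2, TKO regular replicates 1 and 3, and TKO low glucose replicates 1 and 2). The 2 nucleotide genes were 1 without DKO regular replicates 2 or 3 or TKO regular replicates 1 or 3. For nucleotide synthesis, 9 were higher without DKO low glucose replicate 3 and none was lower without DKO low glucose replicate 2.

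The ATF4 and lysosomal responses were smaller in TKO cells. Of 34 ATF4 targets 22 had a lower TKO response and 1, Psat1, a higher one, with median log2 responses of 0.82 and 1.03. Trib3 went from 2.8 ± 0.139 to 43.9 ± 0.234 CPM in DKO cells and from 2.94 ± 0.403 to 18.3 ± 0.853 CPM in TKO cells, which differ by -1.34 ± 0.12 on the log2 scale (adjusted p = 1.73e-06). Cth differed by -1.76, from 2.15 ± 0.297 to 22.5 ± 0.601 CPM in DKO cells and from 15.2 ± 1.63 to 47 ± 4.97 CPM in TKO cells, where it started higher. Vldlr and Stc2 had no count in any DKO library, and P4ha2 had 1 count in all 6, so their responses could not be compared. Of 34 lysosomal genes 18 had a lower TKO response (medians 0.26 and 0.63), as had 11 of 23 genes of FOXO and glucose sensing (medians 0.10 and 0.52), 17 of 36 interferon response genes (medians 0.16 and 0.39) and 10 of 24 cholesterol genes (medians -0.25 and -0.09). A higher one was called for 1 lysosomal and 3 interferon response genes. The lysosomal one was not called without any 1 of the 3 DKO regular libraries, DKO low glucose replicates 1 or 2, TKO regular replicates 2 or 3, or TKO low glucose replicates 1 or 2. Of the interferon response genes 1 was called without DKO regular replicates 2 or 3, DKO low glucose replicates 1 or 3, or TKO regular replicates 2 or 3, each left out alone. Without DKO low glucose replicate 2, 5 cholesterol genes differed.

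For glycolysis and HIF targets more genes had a higher TKO response. Of 21 glycolysis genes 10 had a higher TKO response and none a lower one, with medians of 0.41 in TKO cells and 0.09 in DKO cells in this model. Hk1 went from 274 ± 6.27 to 239.7 ± 2.94 CPM in DKO cells and from 19.1 ± 1.2 to 37.9 ± 5.5 CPM in TKO cells, where its level was far lower throughout (difference 1.17 ± 0.11, adjusted p = 3.32e-06). Pkm and Ldha differed by 0.66 and 0.50. Of 18 HIF targets 8 had a higher and 1 a lower TKO response, with medians of 0.60 and 0.37. Ptgir, among the largest rises in TKO cells, had log2 responses of 2.86 and 2.83 and a difference of 0.04 ± 0.06 (adjusted p = 0.754). For Bnip3 the difference was -0.11 ± 0.08 (adjusted p = 0.349), and for Cpt1a it was 0.12 ± 0.05 (adjusted p = 0.0767). A p above the threshold does not show that the lines respond alike.

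**Figure D5:**
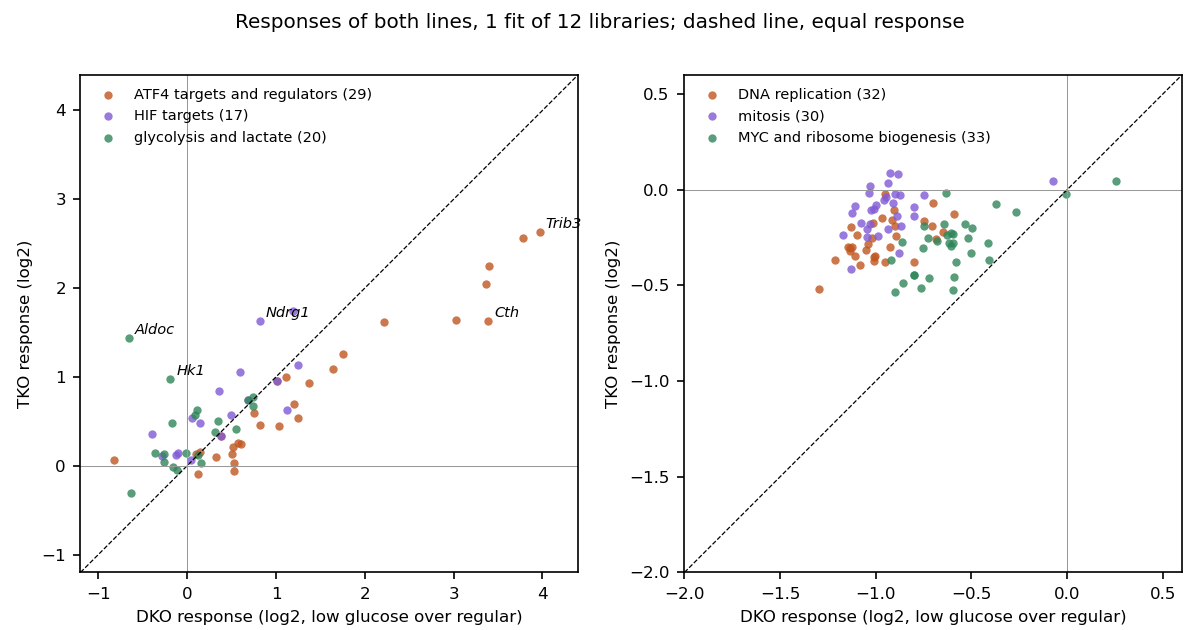
Log2 response of each gene to low glucose in TKO cells (vertical axis) against that in DKO cells (horizontal axis), for ATF4 targets, HIF targets and glycolysis genes (left) and for DNA replication, mitosis and ribosome biogenesis (right), from 1 fit of 12 libraries, with the dashed line at equal responses. Genes with a mean under 0.2 CPM in DKO cells in regular medium are left out, which leaves 29, 17 and 20 on the left and all 32, 30 and 33 on the right, where nearly all points lie above the line.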

How the data were processed

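RNA-seq of 12 libraries was deposited as counts per gene. Per the submitters' processing notes, the authors used STAR 2.7.3a, DESeq2 1.22.1 and mm10; the deposited counts are whole numbers, and the strand setting and the treatment of reads shared by paralogues or overlapping genes are not given in the sources used here. TPM values, also deposited by the authors, served only to compare levels between genes. The authors' own comparison tables were not used.

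The counts of the 6 TKO libraries were fitted with edgeR 4.0.16 in R 4.3.3 (glmQLFit, robust, and glmQLFTest), with TMM factors from all 12 libraries. filterByExpr (at least 10 counts, total 15) left 11267 genes, and p-values were adjusted by Benjamini and Hochberg with a threshold of 0.05. The difference of the responses was fitted on 12 libraries and 11988 genes. The steps were also run on simulated counts drawn separately for each library, so shared deviations of replicates were not part of that check. CPM are per 1000000 counts after TMM. Named genes are the targets, the 15 largest rises and 15 largest falls (called, a mean of at least 5 CPM, no overlap, no predicted genes), the 5 largest gains and 5 largest losses in CPM, list members with the lowest adjusted p and others given as values, and the 6 largest differences between lines each way. Members, lists and the rule were chosen with earlier results of these data known. Same-numbered TKO libraries deviated together (correlations 0.219, 0.770 and 0.581 over 9078 genes), although the labels name no shared culture or day. The numbers served to pair libraries only in the alternative fit with a block, and the main fit was unpaired. Replicates 1 and 3 were not told apart by these correlations. Regular replicate 1 correlated at 0.552 with low glucose replicate 3, and regular replicate 3 at 0.212 with low glucose replicate 1. Only replicate 2 stood apart, with correlations of -0.694 to -0.263 with unlike numbers. In DKO cells the correlations of same-numbered libraries were -0.023, -0.056 and -0.019. Depth was 22190736 to 42140396 counts a TKO library. Of 24982 symbols, 24888 matched RefSeq, 471 of them by a synonym. The motif ACGTGC and the omission of replicate 3 of both media were chosen after seeing the data. Other motifs were searched in the same windows. The FOXO motif (TGTTTAC) was in 4.55% of windows of FOXO and glucose sensing genes, against 2.18% of all windows. It was in 0 of 8 windows of those that rose. The antioxidant core (TGANNNNGC) was in 42.9% of windows of NRF2 targets, against 36.9%, and in 6 of 11 windows of those that rose. The CHR motif (TTTGAA) was in 42.3% for mitosis genes, against 10.9%, and in 1 of 5 windows of those that fell. The E-box was in 15.6% for glycolysis genes, against 8.55%. It was in 0 of 16 windows of those that rose and in the 1 window of the gene that fell. DESeq2 1.42.0, other scalings, filters, the block and omitted libraries were tried as alternatives. Some list members are not reported here.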

Additional observations from a re-analysis of the deposited data

Results flagged for a closer look

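The responses of TKO and DKO cells differed for 3572 genes by the test of the difference itself, and the following groups and genes stood out by it. A lower TKO response was called for 12.1% of all genes, and for 22 of 34 ATF4 targets and 18 of 34 lysosomal genes, with 1 higher in each list. A higher TKO response was called for 17.7% of all genes, and for 32 of 32 genes of DNA replication, 29 of 30 of mitosis, 22 of 33 of ribosome biogenesis and 16 of 30 of the TCA cycle, with none lower. It was also called for 15 of 23 genes of nucleotide synthesis, with 2 lower, and for 10 of 19 of one-carbon metabolism, with 4 lower.

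Among genes also called in TKO cells, averaging 5 CPM or more over all 12 libraries, the largest differences toward a lower TKO response were those of Crisp3 (log2 -2.622), Glipr1 (-1.809), Cth (-1.759), Bcar3 (-1.565), Capn1 (-1.543) and Rag1 (-1.489). Crisp3, a secreted protein of the CAP family with close paralogues whose reads may be shared, went from 1.11 ± 0.153 to 17.9 ± 0.90 CPM in DKO cells and from 6.57 ± 0.768 to 16.8 ± 3.7 CPM in TKO cells (SD, n = 3). Glipr1, of the same family, went from 0.312 ± 0.114 to 1.78 ± 0.17 CPM and from 10.1 ± 0.50 to 16.2 ± 1.19 CPM. Bcar3, a signalling adaptor, went from 2.1 ± 0.2003 to 11.7 ± 0.052 CPM and from 21 ± 0.492 to 39.8 ± 3.43 CPM. Capn1, a calcium-dependent protease, went from 0.893 ± 0.186 to 3.4 ± 0.272 CPM and from 30.7 ± 1.7 to 40.4 ± 3.23 CPM. Crisp3, Glipr1, Cth, Bcar3 and Capn1 thus rose in both lines and started higher in TKO cells. Rag1 went from 6.76 ± 0.169 to 11.5 ± 0.513 CPM in DKO cells and from 22.9 ± 1.13 to 13.7 ± 2.09 CPM in TKO cells, opposite directions in the lines.

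Toward a higher TKO response the largest under the same limit were Lrp4 (log2 2.164), Mt2 (1.665), Elfn1 (1.618), Hist1h1b (1.177), Hk1 (1.173) and Col6a6 (1.152). Aldoc, just under the limit on mean CPM, differed by 2.09. Lrp4, a cell surface receptor, was at 92.2 ± 1.222 and 94.6 ± 2.71 CPM in DKO cells and near silent in TKO cells, with 0.145 ± 0.0786 and 0.632 ± 0.131 CPM. Elfn1 was at 10.6 ± 0.608 and 12.1 ± 0.601 CPM in DKO cells and at 0.385 ± 0.0791 and 1.43 ± 0.405 CPM in TKO cells. Mt2 was at 1.66 ± 0.119 and 2.22 ± 0.176 CPM in DKO cells, and Col6a6 at 0.447 ± 0.0678 and 0.756 ± 0.0624 CPM. Hist1h1b, a linker histone gene, went from 6.56 ± 0.613 to 2.11 ± 0.872 CPM in DKO cells and from 7.19 ± 1.03 to 5.05 ± 0.894 CPM in TKO cells. The TKO change of Hist1h1b was not called in the fit of 12 libraries, with scaling by library totals, or without TKO regular replicate 1 or 3 or any 1 of the TKO low glucose libraries, while its difference between lines was called in each setting run. The TKO change of Lrp4 was not called without replicate 3 of both media. The difference of Col6a6 was not called without DKO regular replicate 1 (log2 1.08, adjusted p = 0.0520) or DKO regular replicate 3 (log2 1.10, adjusted p = 0.0572).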

How the results depend on the processing

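All alternatives listed at the outset were run, and no called gene was called in the other direction. Of 367 called genes that were followed, 170 kept their call in each setting that tested them, as did 118 of the 156 called genes chosen by the naming rule. A setting that did not test a gene was not counted as a loss, as with the minimum of 5 CPM for Lpin1. With the replicate block, a fit that pairs same-numbered TKO libraries, 5753 genes were called, 3012 higher and 2741 lower, and all 1880 and 1350 were among them. A fit over all 12 libraries called 2149 genes lower. DESeq2 called 3246 genes, 1600 higher and 1646 lower. Leaving out 1 library gave 1562 to 3136 called genes, 1081 to 1829 higher and 480 to 1308 lower. Without replicate 3 of both media, chosen after seeing the data, 1169 were called, 843 higher and 326 lower, and with 2 libraries a group the spread has fewer degrees of freedom. For the difference between lines, no filter on low counts gave 1383 higher. Leaving out 1 library gave 2829 to 4164 called, 1327 to 2315 higher and 930 to 2440 lower. Transcript length and GC content were set beside each TKO library's deviation from its group mean. The Spearman correlation with GC was 0.491 for low glucose replicate 1 and -0.406 for low glucose replicate 3. In the other TKO libraries it was -0.071 to 0.141. The response itself correlated at 0.174 with length and -0.120 with GC. Whether this bears on the calls, and the cause of these shifts, was not tested. Genes with few counts, such as P4ha2 with 9 in the regular libraries, have imprecise fold changes.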
